A study of Mus musculus with 6 samples.

Results

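The genes described here are a fixed list of 59 cell cycle and DNA replication genes, chosen by name: cyclins, the kinases they activate, inhibitors of those kinases, the machinery that copies DNA and the machinery that divides the chromosomes. The choice was made with earlier results of these data known. A gene was counted as measured where a probe set of the array named it alone, and where several did, the brightest on average was kept. Of the 59 genes, 57 were measured among 19926 genes tested, and Ccnb1 and Cdkn1a were not analysed here. By role they comprised 5 cyclins and kinases of G1 (the growth phase before DNA synthesis), 22 genes of G1/S and replication, 28 genes of G2/M and mitosis, and 2 inhibitors of cyclin-dependent kinases (CDKs). The study, which by its title asks whether inflammation turns astrocytes towards progenitor cells, measured RNA of primary cultures of these glial cells from C57BL/6J mice. One group received 50 ng/mL of tumour necrosis factor (TNF), a cytokine of inflammation, for 24 h, and the control group has the same time label. The labels give no genotype beyond the strain and do not say what the controls received. There were 3 arrays for each group, numbered 1 to 3, and every value is a log2 signal, so that a difference of 1 is a 2-fold ratio. Differences are TNF minus control. Precision is limited by having 3 arrays a group. Whether replicates came from different animals or cultures is not in the labels. The p-values therefore refer to the spread among these 6 samples, and that spread may be technical.

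A cell that leaves rest first makes D-type cyclins, which activate the kinases Cdk4 and Cdk6 and thereby release E2F transcription factors from the retinoblastoma protein. E2F factors switch on the genes of DNA synthesis, among them cyclin E, the Mcm helicase and the enzymes that make nucleotides. Genes of G2 and mitosis follow later and are controlled through promoter elements named the cell cycle homology region (CHR) and the CCAAT box, and cells that stop dividing keep both waves silent. Astrocytes of the adult brain rarely divide, while astrocytes in primary culture can proliferate.

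Promoters of the later and the earlier wave carry different letters, and the stretches shown here are those of members whose RNA is described further on. They come from RefSeq (mouse build GRCm38.p6), end 1 base before the annotated start site, and have motif matches in capitals. Each stretch is shorter than the window used for the counts below, so some matches are not shown. Among these are the CCAAT boxes of Mki67, whose first bases lie at -188, -166 and -141 from the start site. CHR was searched as TTTGAA or TTCGAA, the CCAAT box as CCAAT and E2F as TTTCGCGC, TTTGGCGC, TTTCCCGC or TTTGCCGC, each on both strands, so that ATTGG is a CCAAT box and TTCAAA a CHR on the other strand. The G2/M genes Cdk1 (chr10:69352913-69353052, minus strand), Mki67 (chr7:135716380-135716499, minus strand), Kif11 (chr19:37376322-37376381, plus strand) and Cdc20 (chr4:118437344-118437403, minus strand) read:
Cdk1: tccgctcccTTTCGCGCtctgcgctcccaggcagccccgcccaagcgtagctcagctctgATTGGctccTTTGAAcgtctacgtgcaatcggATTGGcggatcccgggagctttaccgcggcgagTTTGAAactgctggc
Mki67: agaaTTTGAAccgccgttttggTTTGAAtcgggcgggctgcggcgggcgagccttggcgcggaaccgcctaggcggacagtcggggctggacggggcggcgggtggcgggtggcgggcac
Kif11: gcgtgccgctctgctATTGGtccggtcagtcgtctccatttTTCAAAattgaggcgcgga
Cdc20: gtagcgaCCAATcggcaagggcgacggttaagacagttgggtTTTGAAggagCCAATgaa

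The G1/S genes E2f7 (chr10:110745239-110745438, plus strand), Mcm6 (chr1:128359706-128359825, minus strand) and Mcm5 (chr8:75109349-75109508, plus strand) carry E2F letters. In Mcm6 and Mcm5 a pair of E2F matches on opposite strands overlap.
E2f7: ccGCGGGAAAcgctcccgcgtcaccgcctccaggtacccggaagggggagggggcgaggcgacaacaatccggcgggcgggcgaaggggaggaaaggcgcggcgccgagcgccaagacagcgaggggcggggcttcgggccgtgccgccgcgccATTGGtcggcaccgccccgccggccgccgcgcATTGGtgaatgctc
Mcm6: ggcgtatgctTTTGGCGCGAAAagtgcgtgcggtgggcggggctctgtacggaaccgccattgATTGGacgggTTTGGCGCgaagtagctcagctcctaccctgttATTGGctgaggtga
Mcm5: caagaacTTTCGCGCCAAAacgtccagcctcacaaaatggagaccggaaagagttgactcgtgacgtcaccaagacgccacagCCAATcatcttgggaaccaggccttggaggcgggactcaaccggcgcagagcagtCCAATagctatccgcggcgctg

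The promoter table held 49 of the 59 members, 7 of them with 2 start sites, and a gene was counted once if any of its windows of 300 bases, 250 of them before the start site, held a match. CHR letters were in 19 of 24 G2/M promoters (79.2%) and 4 of 19 G1/S promoters (21.1%), against 19.0% of the 15605 tested genes with a promoter. The CCAAT box was in 20 of the 24 and 13 of the 19, against 41.7% of all, and both motifs together were in 75% of the G2/M promoters, 21.1% of the G1/S promoters and 8.79% of all. E2F letters showed the opposite split, with 9 of 19 G1/S promoters (47.4%) and 1 of 24 G2/M promoters, that of Cdk1, against 3.47% of all. None of the 3 G1 promoters and none of the 3 inhibitor promoters in the table, that of Cdkn1a included, held CHR or E2F letters. A match describes the letters and does not show that a factor binds there.

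**Figure D1:**
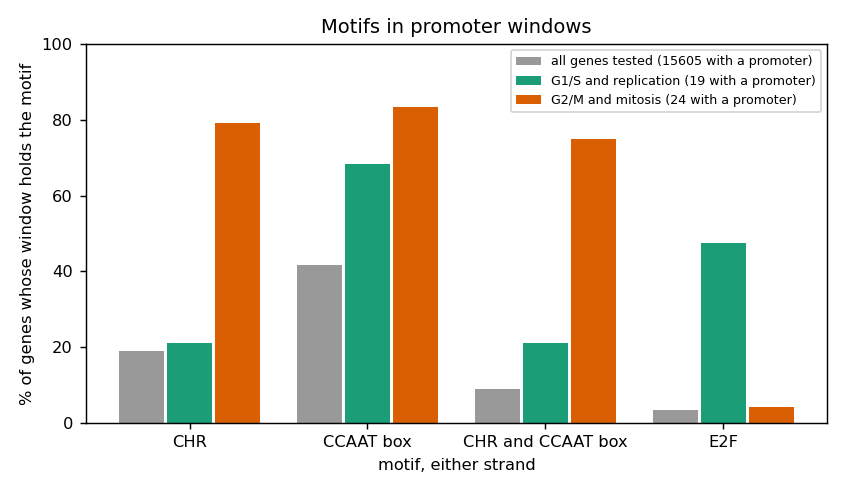
Share of genes (percent, vertical axis) whose promoter window of 300 bases holds each motif on either strand, for all tested genes with a promoter (grey), G1/S and replication members (green) and G2/M and mitosis members (orange). CHR letters were in 79.2% of G2/M and 21.1% of G1/S promoters, E2F letters in 4.17% and 47.4%.

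The 6 arrays had medians between 7.14 and 7.18, and the median of the mean signals of the genes tested was 7.63. Most astrocyte markers were bright, with list means of 11.02 to 11.32 in controls and 10.64 to 10.91 with TNF over 10 genes. Only 1 of the 10, S100b, lay below the median of 7.63, with means of 6.59 in controls and 6.19 with TNF. Of the 10 markers 3 were called lower and none higher, and 6 lower and 2 higher with the block given next. Of all genes tested, 3.33% were called lower and 3.87% higher, and 11.8% and 9.73% with that block. Samples with the same number resembled each other: over all genes, the deviation of a control from its group mean correlated with that of its TNF partner at 0.55, 0.65 and 0.75 in pairs 1, 2 and 3, so the fit with the replicate number as a block is given beside the fit without it. Replicate 2 stood apart in the genes described here. All 28 G2/M members were highest in control 2 among the controls and in TNF 2 among the TNF samples, and this held for 14 of the 22 G1/S members, against 17.7% of all genes tested. The microglia markers were lowest in replicate 2, with list means of 6.77, 6.35 and 7.34 in controls 1 to 3 against 7.05, 6.46 and 7.41 in TNF 1 to 3. The part of cell composition in these levels was not tested.

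Genes of DNA replication and of mitosis were lower with TNF in most comparisons of matched samples, and none of the 5 G1 cyclins and kinases passed the test in either fit. Of the 57 members, 53 had a negative difference, and the 4 with a positive one were all of the G1 group, at most 0.11. The median difference was -0.42 over the 22 G1/S members and -0.67 over the 28 G2/M members, against -0.0033 over all genes tested. In all 3 pairs 44 members were lower, a pattern shown by 26.9% of all genes, and 1 member, Cdk4, was higher in all 3 pairs, against 25.7% of all genes. The groups did not overlap for 9 members, all lower with TNF, a pattern shown by 11.7% of all genes. RNA of whole cultures was measured, so fewer cycling cells and less RNA of these genes per cell cannot be told apart.

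With limma and Benjamini-Hochberg adjustment over all genes, 1 member, E2f7, was called lower and none higher, against a background of 3.33% of all genes called lower and 3.87% called higher. At an unadjusted p under 0.05 there were 17 members lower and 0 higher, where 9.73% of all genes were lower. With the replicate block 32 members were called lower and 0 higher, against 11.8% of all genes lower and 9.73% higher. The block leaves every difference as it is and takes out the spread between replicate numbers, which was large here: the median SD among controls was 0.73 for G2/M members and 0.36 for G1/S members, against 0.15 for all genes. The median standard error (SE) of a G2/M difference was 0.36 without the block and 0.15 with it.

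**Figure D2:**
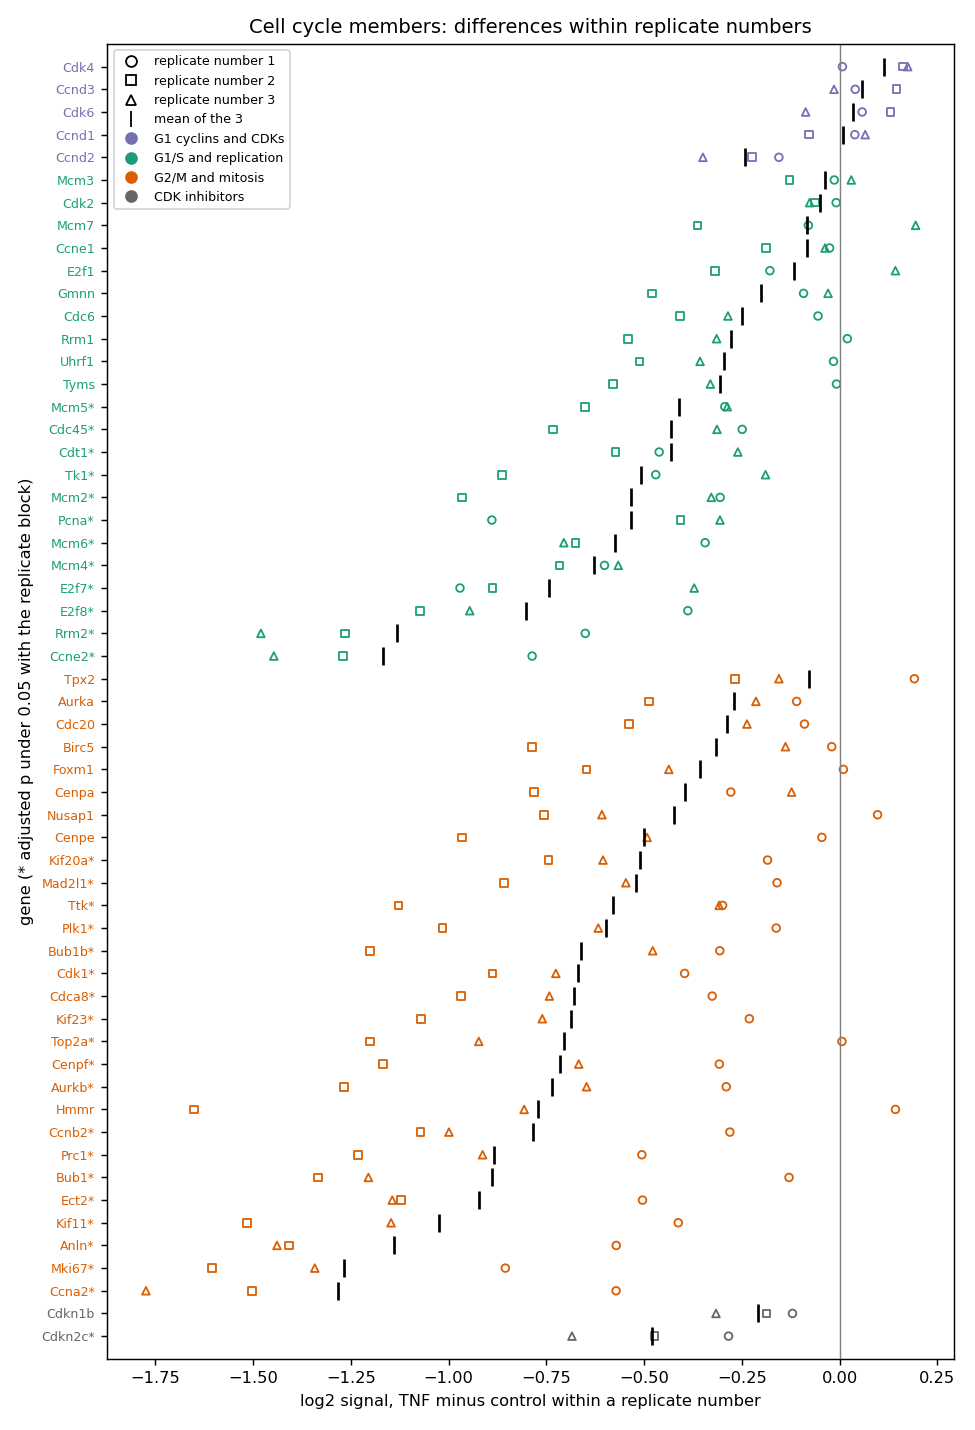
Difference of log2 signal, TNF minus control, within each replicate number (open symbols) and their mean (black bar) for the 57 measured members, coloured by role; a star marks genes called with the replicate block. The G1 genes lie around 0 except Ccnd2, with a mean of -0.24. In all 3 pairs 44 of the 57 members, Ccnd2 among them, are left of 0.

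In the G1 group the signals were high. Ccnd1, cyclin D1, read 12.49, 13.28 and 13.12 in controls 1 to 3 against 12.53, 13.20 and 13.18 in TNF 1 to 3, a difference of 0.0083 with a 95% confidence interval of -0.58 to 0.60. Replicate 1 was the low one in both groups, and the groups overlapped throughout. Ccnd2, cyclin D2, read 12.82, 13.40 and 13.29 in controls and 12.67, 13.18 and 12.94 with TNF. It was the only G1 member lower in all 3 pairs, with a difference of -0.24 (SE 0.19, limma adjusted p = 0.637, and 0.0779 with the replicate block), and the groups overlapped. Ccnd3, cyclin D3, read 10.66, 10.68 and 10.74 in controls and 10.70, 10.82 and 10.72 with TNF.

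Cdk4, a kinase that D-type cyclins activate, read 12.52, 12.41 and 12.33 in controls and 12.53, 12.57 and 12.50 with TNF, a difference of 0.11 with a 95% confidence interval of -0.13 to 0.36. Its relative Cdk6 read 10.55, 10.57 and 10.86 in controls and 10.60, 10.70 and 10.77 with TNF. Their ranges overlapped, and none of the 5 G1 members passed in either fit. The 95% confidence intervals of Ccnd3 (-0.18 to 0.29), Cdk4 and Cdk6 (-0.26 to 0.32) were narrow, while those of Ccnd1 and Ccnd2 (-0.69 to 0.20) were wider.

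E2f7, an E2F family member that represses E2F target genes and is itself made in S phase, fell with TNF. Its signals were 7.98, 8.05 and 7.82 in controls 1 to 3 and 7.0, 7.16 and 7.45 with TNF, so the groups did not overlap. The difference was -0.74 (SE 0.14), or 1.67-fold lower, with a limma adjusted p of 0.0199 (0.00553 with the replicate block). The call was lost without control 1 (adjusted p = 0.0825), control 2 (0.0751), TNF 1 (0.0628) or TNF 2 (0.0769), and the difference lay between -0.93 and -0.63 over the alternatives that kept the gene, which lies just below the median signal. Its close relative E2f8, a repressor of the same kind, read 7.45, 8.39 and 7.58 in controls and 7.06, 7.31 and 6.63 with TNF, also without overlap (difference -0.80, adjusted p = 0.148, and 0.00553 with the block). E2f1, an activator of the family, differed by -0.12 and was higher in pair 3.

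Among cyclins of S phase entry, Ccne2, cyclin E2, read 6.94, 7.80 and 6.46 in controls and 6.16, 6.53 and 5.01 with TNF. The difference of -1.17 (SE 0.44) was 2.25-fold, with a limma adjusted p of 0.199 without and 8.77e-04 with the block. TNF 2 lay above control 3, so the groups overlapped, although each TNF sample was lower than the control of its own number by at least 0.79. Ccne1, cyclin E1, differed by -0.08 and its partner kinase Cdk2 by -0.05, both far from any call.

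Of the genes that license and unwind origins of replication, Cdt1, which loads the Mcm helicase, read 8.09, 8.06 and 7.85 in controls and 7.63, 7.48 and 7.59 with TNF. The groups did not overlap (difference -0.43, SE 0.11, limma adjusted p = 0.068, and 0.0139 with the block). Mcm4, a helicase subunit, read 9.22, 9.34 and 8.59 in controls and 8.62, 8.62 and 8.02 with TNF, and its drop was alike in the pairs at -0.60, -0.72 and -0.57 (adjusted p = 0.203, and 0.0016 with the block). Of the 6 subunits none was called without the block. Mcm2 at -0.53, Mcm4 at -0.63, Mcm5 at -0.41 and Mcm6 at -0.57 were called lower with the block, while Mcm3 at -0.04 and Mcm7 at -0.08 were not. Whether the subunits differ from each other was not tested. Cdc45, the helicase partner, was called lower with the block (-0.43), and Cdc6 at -0.25 and Gmnn, the Cdt1 inhibitor geminin, at -0.20 were not.

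Pcna, the sliding clamp of DNA polymerases, read 11.87, 11.72 and 11.26 in controls and 10.98, 11.31 and 10.96 with TNF, with pair 1 showing the widest gap at -0.89. The groups overlapped slightly, and the difference of -0.53 had a limma adjusted p of 0.15 (0.0195 with the block). Another Pcna probe set gave -0.51. Rrm2, the subunit of ribonucleotide reductase whose amount follows the cell cycle, read 9.37, 10.69 and 9.65 in controls and 8.72, 9.42 and 8.17 with TNF, with TNF 2 just above control 1, a difference of -1.13 or 2.19-fold (adjusted p = 0.166, and 0.002 with the block). The other subunit, Rrm1, differed by -0.28 and did not pass. Tk1, the thymidine kinase of S phase, read 8.13, 8.74 and 7.93 in controls and 7.66, 7.88 and 7.74 with TNF without overlap, a difference of -0.51 (adjusted p = 0.229, and 0.0287 with the block), and its other probe set gave -0.39. Tyms, thymidylate synthase, at -0.31 and Uhrf1, which maintains DNA methylation at replication forks, at -0.29 did not pass.

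In total 1 of the 22 G1/S members was called lower (3.33% of all genes) and none higher, and with the block 12 were lower (11.8% of all genes). At an unadjusted p under 0.05, 10 were lower, against 9.73% of all genes. The groups did not overlap for 7 of them, against 11.7% of all genes, and 18 were lower in all 3 pairs, against 26.9%.

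Mitotic genes varied widely between replicates. Mki67, the proliferation marker Ki-67 that coats mitotic chromosomes, read 7.34, 9.40 and 8.21 in controls 1, 2 and 3 and 6.48, 7.80 and 6.86 with TNF. The controls alone spanned more than the difference between the groups, and TNF 2 lay above control 1, so the groups overlapped, while the pairs differed by -0.85, -1.61 and -1.34. The mean difference of -1.27 (2.41-fold) had a limma adjusted p of 0.243 without and 8.45e-04 with the block.

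The cyclin and kinase that drive cells through G2 moved with it. Ccna2, cyclin A2, read 8.51, 10.01 and 9.06 in controls and 7.94, 8.51 and 7.29 with TNF; control 1 and TNF 2 nearly touched, without overlap. The difference was -1.28, smallest in pair 1 at -0.57 and largest in pair 3 at -1.77 (adjusted p = 0.13 by limma, and 0.00463 with the block). Cdk1, the mitotic kinase, read 9.26, 10.12 and 9.34 in controls and 8.86, 9.23 and 8.61 with TNF, also without overlap, at a difference of -0.67 (adjusted p = 0.202, and 0.00459 with the block). Ccnb2, cyclin B2, differed by -0.78 and passed with the block. Cdc20, which activates destruction of the cyclins, at -0.29 and Foxm1, a transcription factor of mitotic genes, at -0.36 did not.

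Among genes of the spindle and of cytokinesis, differences ran from -0.08 for Tpx2 to -1.14 for Anln. Anln, the actin-binding anillin of the cleavage furrow, read 7.90, 9.48 and 8.27 in controls and 7.33, 8.07 and 6.83 with TNF (difference -1.14, limma adjusted p = 0.209, and 0.00316 with the block). Ect2, the exchange factor that starts furrowing, read 8.32, 9.61 and 8.59 in controls and 7.81, 8.49 and 7.45 with TNF (difference -0.92, and adjusted p = 0.00296 with the block). In both genes TNF 2 reached into the control range. Kif11, the motor that separates spindle poles, read 7.64, 9.23 and 7.84 in controls and 7.23, 7.71 and 6.70 with TNF, a difference of -1.03 (adjusted p = 0.247, and 0.00798 with the block). Prc1 and Kif23 of the central spindle, at -0.88 and -0.69, passed with the block, and Tpx2, a spindle assembly factor, was the G2/M member nearest to no difference at -0.08.

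Cdca8, a subunit of the chromosomal passenger complex, read 6.73, 7.87 and 7.28 in controls and 6.40, 6.90 and 6.54 with TNF (difference -0.68, limma adjusted p = 0.237, and 0.00826 with the block). Aurkb, the kinase of that complex, was called with the block at -0.73 and its subunit Birc5, survivin, was not at -0.32. Cenpf, a kinetochore protein, read 6.61, 7.97 and 7.15 in controls and 6.31, 6.80 and 6.49 with TNF (difference -0.71, and adjusted p = 0.0151 with the block). Again TNF 2 lay above control 1 in Cdca8 and Cenpf. The spindle checkpoint genes Bub1 at -0.89, Bub1b at -0.66, Ttk at -0.58 and Mad2l1 at -0.52 all passed with the block. Top2a, the topoisomerase that untangles replicated DNA, differed by -0.71 and passed narrowly with the block (adjusted p = 0.0499), with a difference near 0 in pair 1 and another, dim probe set at -0.27. The mitotic kinase Plk1 at -0.60 and the motor Kif20a at -0.51 passed with the block, while the kinase Aurka at -0.27, the centromere proteins Cenpa at -0.39 and Cenpe at -0.50, and the spindle proteins Nusap1 at -0.42 and Hmmr at -0.77 did not. Of the 28 G2/M members none was called without the block (3.33% of all genes were called lower) and 19 were lower with it (11.8% of all genes). At an unadjusted p under 0.05, 7 were lower, against 9.73% of all genes. The groups did not overlap for 2 of the 28, Ccna2 and Cdk1, a share below the 11.7% of all genes, and 23 were lower in all 3 pairs, against 26.9%.

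**Figure D3:**
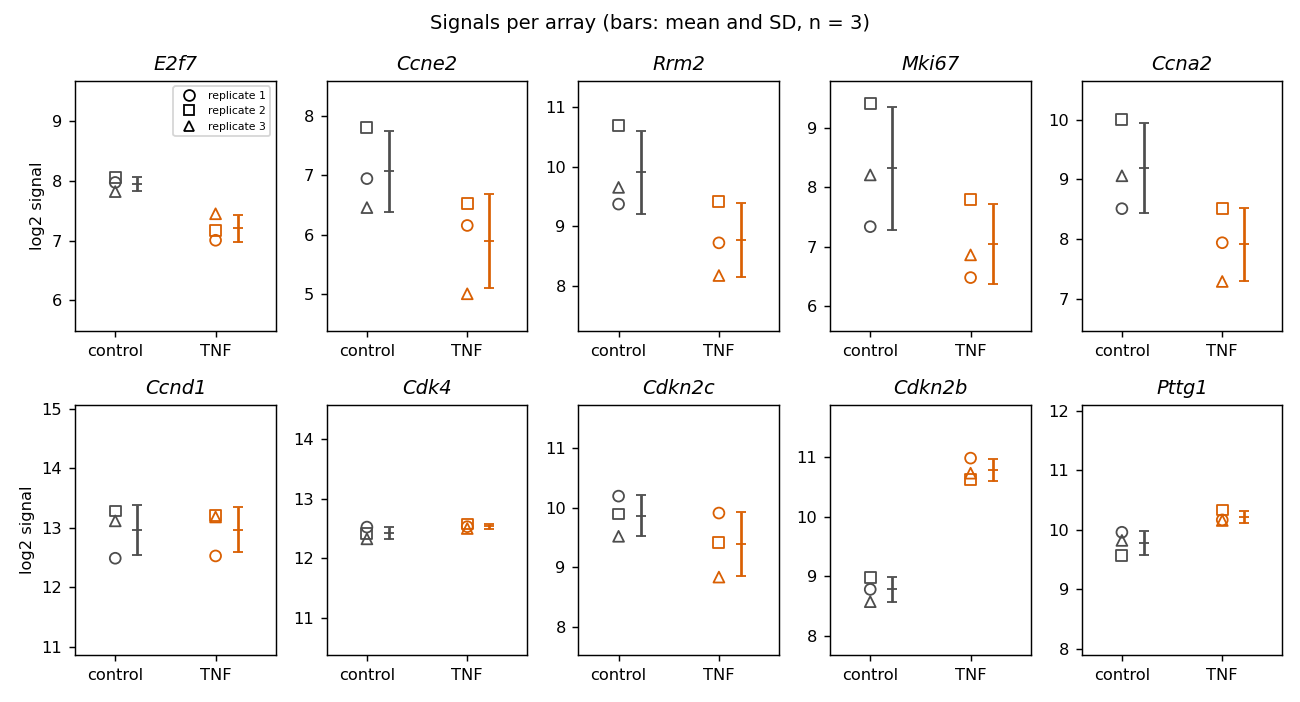
Log2 signal of 10 genes per array (symbols by replicate number, grey for control and orange for TNF), with mean and SD (n = 3) beside them; all panels span the same number of log2 units. In Ccne2, Rrm2, Mki67 and Ccna2 replicate 2 is the highest in both groups, and Cdkn2b lies 4.00-fold higher with TNF.

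Set against each other within replicate numbers, the G1/S and G2/M members had drops whose difference changed sign between pairs. Whether the 2 drops differ was not tested. The G1/S list mean was 8.33, 8.78 and 8.09 in controls 1, 2 and 3 and 8.02, 8.16 and 7.71 with TNF, a drop of 0.31, 0.62 and 0.38. The G2/M list mean was 7.44, 8.86 and 7.79 in controls and 7.21, 7.82 and 7.07 with TNF, a drop of 0.24, 1.04 and 0.72. The G2/M drop was thus smaller than the G1/S drop in pair 1 and larger in pairs 2 and 3, and the change in their gap was -0.23 ± 0.27 (mean ± SD, n = 3 pairs). With array weights the change in the gap was -0.07 and the medians were -0.34 for G1/S and -0.42 for G2/M members. Pair 2, whose control had the highest signals, showed the largest drop in 25 of 28 G2/M and 16 of 22 G1/S members, against 29.2% of all genes tested. Without control 2 the median difference was -0.20 for G1/S and -0.24 for G2/M members, in a fit that keeps TNF 2 without its partner, and 46 of the 57 members had a negative difference. Without both arrays of replicate 2 the medians were -0.29 and -0.43, with 20 members called lower with the block and none without it. The share of all genes called in these fits is not given here.

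**Figure D4:**
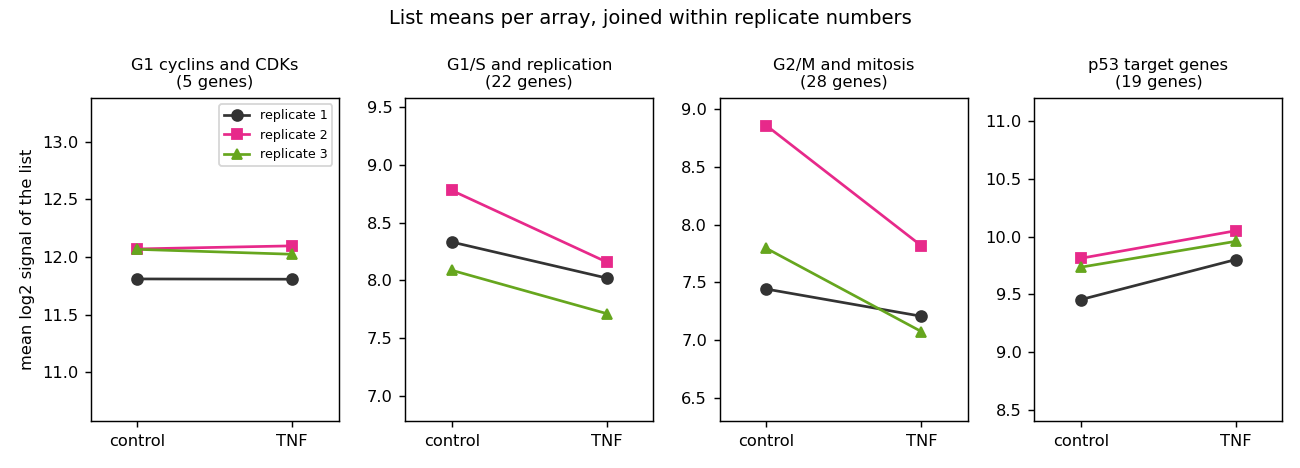
Mean log2 signal of 4 gene lists on each array, with lines joining control and TNF of the same replicate number; all panels span the same number of log2 units. The G1 lines move by at most 0.04, G1/S and G2/M lines go down in all 3 pairs with replicate 2 the highest, and p53 target lines go up by 0.35, 0.24 and 0.22.

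Of the 3 inhibitors on the list, 2 were measured, and neither was called higher. Cdkn2c, the Cdk4 and Cdk6 inhibitor p18, read 10.19, 9.89 and 9.52 in controls and 9.91, 9.42 and 8.83 with TNF, lower in each pair (difference -0.48, limma adjusted p = 0.456, and 0.0124 with the block). Replicate 1 was the highest and replicate 3 the lowest in both groups, and the groups overlapped. Cdkn1b, the CDK inhibitor p27 of resting cells, read 11.20, 10.89 and 10.84 in controls and 11.08, 10.70 and 10.53 with TNF, a difference of -0.21 with a 95% confidence interval of -0.60 to 0.19. Another, dimmer Cdkn1b probe set gave -0.31. Neither inhibitor passed without the block.

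Other inhibitors and pocket proteins, taken from a list of 18 genes that share the pathway, included the largest difference among the 57 members and the 135 other pathway genes. Cdkn2b, the Cdk4 and Cdk6 inhibitor p15, read 8.78, 8.99 and 8.58 in controls 1 to 3 and 10.99, 10.63 and 10.73 with TNF. It rose by 2.0 on the log2 scale (SE 0.15), or 4.00-fold, with a limma adjusted p of 2.62e-04, and was called in all alternatives run, with differences from 1.90 to 2.18. Its neighbour Cdkn2a, whose locus makes p16 and the p53 activator Arf and whose probe set does not tell them apart here, rose from a mean of 8.42 (SD 0.06) to one of 8.84 (SD 0.04) over 3 arrays each (adjusted p = 0.0483); this call was lost without any 1 array (adjusted p from 0.0945 to 0.162) and, with all arrays kept, under quantile normalization (0.0611), the highest-variance probe set (0.0513) and all probe sets (0.0508). Rb1, the retinoblastoma protein, differed by -0.37 and passed as lower with the block (adjusted p = 0.0329). Fzr1 at 0.22, an activator of cyclin destruction in G1, and Lin37 at 0.25 and Lin52 at -0.19, subunits of the DREAM complex that silences cell cycle genes, did not pass in either fit. In this list 2 genes were called higher and none lower, where 3.87% of all genes were higher and 3.33% lower. With the block 2 were higher and 2 lower, where 9.73% of all genes were higher and 11.8% lower. The 2 lower with the block were Rb1 and Lin54, also a DREAM subunit, at -0.30 (limma adjusted p = 0.0327 with the block). The subunit Lin9 at 0.25 did not pass in either fit. Lin54 and Lin9 were named after their values were seen.

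Most replication and mitosis genes outside the fixed list, in lists also chosen with earlier results known, lay on the same side. Of 43 other G1/S and replication genes 37 had a negative difference (median -0.21). Without the block 1 of the 43 was called lower and none higher, where 3.33% of all genes were lower and 3.87% higher. With the block 13 were lower and none higher, where 11.8% of all genes were lower and 9.73% higher. The called gene was Cdca7, a chromatin remodelling partner that E2F and Myc are known to induce, which fell from a mean of 8.44 (SD 0.41) to one of 7.62 (SD 0.10) over 3 arrays each (limma adjusted p = 0.0491); leaving out any single array but control 3 ended the call (adjusted p from 0.0892 to 0.142), as did the highest-variance probe set (0.0502) and all probe sets (0.0517). Next by p were Exo1, a nuclease of DNA repair, at -0.55, Pola1 and Prim1, subunits of the polymerase that starts new strands, at -0.63 and -0.66, Brca2, a repair factor, at -0.63 and Clspn, a checkpoint adaptor, at -0.49, all lower with the block and without overlap of the groups. In this list 7 of the 43 genes were lower without overlap, against 11.7% of all genes.

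Of 55 other G2/M and mitosis genes 53 had a negative difference (median -0.42). None was called without the block, where 3.33% of all genes were lower and 3.87% higher. With the block 31 were lower and 2 higher, where 11.8% of all genes were lower and 9.73% higher. Spag5, a spindle protein, at -0.63, Pbk, a mitotic kinase, at -1.04, Incenp, the scaffold of the passenger complex, at -0.41, Ckap5, a microtubule polymerase, at -0.33 and Cdc25b, the phosphatase that activates Cdk1, at -0.32 were lower with the block. Pttg1, securin, which guards sister chromatids, went the other way: it read 9.96, 9.56 and 9.82 in controls and 10.17, 10.33 and 10.16 with TNF, without overlap (difference 0.44, adjusted p = 0.108 by limma, and 0.0366 with the block). The other gene higher with the block was Gtse1 at 0.47, named after its values were seen.

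**Figure D5:**
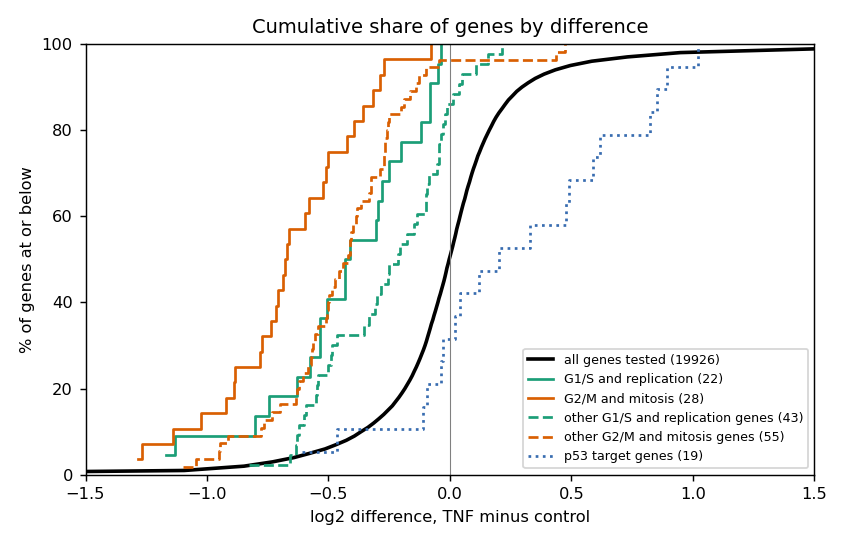
Cumulative percent of genes (vertical axis) at or below each log2 difference, TNF minus control (horizontal axis), for all 19926 genes tested, the G1/S and G2/M members, the other genes of both phases, and p53 targets. The curves of both member groups reach 100% below 0, with medians of -0.42 and -0.67, while the curve of all genes crosses 50% near 0.

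Targets of p53, the factor that stops the cycle after damage or stress, were examined because Cdkn1a, its best known cell cycle target, was not analysed here. Of 19 measured targets 4 were called higher and 1 lower, where 3.87% of all genes were higher and 3.33% lower. With the block 9 were higher and 2 lower, where 9.73% of all genes were higher and 11.8% lower, and the median difference was 0.20. The difference was above 0 for 13 of the 19 targets and below 0 for 6. Gadd45a, a growth arrest gene, rose from 8.54 ± 0.33 to 9.36 ± 0.18 and Btg2, an antiproliferative gene, from 9.28 ± 0.22 to 9.86 ± 0.08 (SD over 3 arrays; adjusted p = 0.0359 and 0.0445 by limma). The death receptors Fas and Tnfrsf10b, which inflammatory signals are also known to induce, rose 2.03-fold and 1.85-fold (adjusted p = 0.0103 and 0.0494). Sesn1, a stress-induced sestrin, fell from 10.73 ± 0.06 to 10.12 ± 0.04 (adjusted p = 0.0108), and Plk2, a stress-induced kinase, passed as higher with the block at 0.85 (adjusted p = 4.70e-04). The 2 targets lower with the block were Sesn1 and Perp, the latter at -0.46 and named after its values were seen. The calls of Gadd45a, Btg2 and Tnfrsf10b were lost in 4, 5 and 5 of the 6 fits without 1 array, that of Sesn1 in 1, without control 1 (adjusted p = 0.0537), and that of Fas in none of the 6. The call of Tnfrsf10b was also lost with all arrays kept, under median centring (adjusted p = 0.0504), quantile normalization (0.0518), the highest-variance probe set (0.0505) and all probe sets (0.052).

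Markers of other cells that a glial culture can hold were read beside these results, as list means that ran over the 3 arrays of a group. The 11 oligodendrocyte lineage markers, which include dividing precursors, ran from 7.80 to 7.87 in controls and from 7.59 to 7.71 with TNF; the lineage factors Olig1 and Olig2 were called lower (-1.21 and -0.60), while the precursor receptors Pdgfra at 0.14 and Cspg4 at -0.04 were not. The 11 microglia markers ran from 6.35 to 7.34 and from 6.46 to 7.41, with none called and 2 higher with the block. Endothelial markers (8 genes) ran from 6.19 to 6.48 and from 6.01 to 6.46, fibroblast and mural markers (10 genes) from 8.04 to 8.52 and from 7.70 to 8.34, neuron markers (10 genes) from 7.27 to 7.52 and from 7.17 to 7.44, and ependymal markers (8 genes) from 7.10 to 8.04 and from 6.97 to 7.40. In these 4 lists Kdr, Acta2 and Map2 were called lower and no gene was called higher, and with the block 4 ependymal markers, 3 of fibroblasts and mural cells, 2 of neurons and 1 of endothelium were lower and 1 neuron marker was higher. For all of these marker lists the shares of all genes called were 3.33% lower and 3.87% higher. With the block they were 11.8% lower and 9.73% higher. The list means hide a wide spread within lists. Among fibroblast and mural markers the control mean was 13.37 for Acta2 and 4.05 for Lum. Among neuron markers it was 12.09 for Stmn2 and 5.27 for Slc17a6. Log2 array signals have no zero, so absence of a cell type cannot be read from them, and the part of these cells in the cell cycle differences was not tested.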

How the data were processed

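The authors deposited log2 values of Affymetrix Mouse Gene 1.0 ST arrays for 35544 probe sets and 6 samples, and RMA and limma are named, with no version, per the submitters' processing notes. RMA as a method corrects background, equalizes array distributions and summarizes probes. It can shrink large differences and dim signals carry little information. That the scale is log2 was read from the values, up to 14.37. Probe sets with exactly 1 gene symbol (21777) in the platform annotation were reduced to the brightest on average per gene.

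Groups and replicate numbers came from sample titles. TNF was compared with control by limma 3.58.1 (lmFit, eBayes; R 4.3.3), two-sided and unblocked, with Benjamini-Hochberg adjustment over 19926 genes and a threshold of 0.05. Samples of 1 number share a prefix in their descriptions, whose meaning is not stated, and each such pair correlated above 0.1, so a fit with the replicate number as a term is also given. The script was tested on simulated data. Alternatives were other scalings, variance models, probe set choices, a signal filter and left-out arrays. Values per sample are given for all G1 genes and inhibitors and the 8 members of smallest p in each other role group; other lists name the 6 genes of smallest p, and further members are given by role. Members and lists were chosen with earlier results of these data known. Python 3.11.15, pandas 2.3.3, numpy 2.4.6 and matplotlib 3.10.9 made tables and plots.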

Additional observations from a re-analysis of the deposited data

How the results depend on the processing

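Without the block, 1 member was called lower with 6 of the 8 fits that kept all 6 arrays and 2 (Cdt1 and E2f7) with quantile normalization or array weights; the single call was Cdt1 instead of E2f7 among genes at or above the median signal, where 39 members were left. The replicate block gave 32 members, all lower, and 61 of the 135 other pathway genes, 48 lower and 13 higher. In that fit 11.8% of all genes were lower and 9.73% higher. Without the block 8 of these other genes were called, 2 lower and 6 higher. There 3.33% of all genes were lower and 3.87% higher. The count of other genes was 5 with the highest-variance probe set or all probe sets, 6 with quantile normalization and 7 with median centring. The share of all genes called under these scalings and probe set choices is not given here. Array weights gave medians of -0.34 (G1/S) and -0.42 (G2/M), and -0.07 for the change in their gap. Leaving out 1 array or 1 pair without the block gave 0 to 2 members lower and 1 to 7 other genes. With the block, leaving out pair 1, 2 or 3 gave 41, 20 or 16 members and 70, 33 or 24 other genes. The share of all genes called in each of these leave-out fits is not given here. The counts therefore cannot be set against a background. Over all these leave-outs the medians ran from -0.52 to -0.20 (G1/S) and -0.97 to -0.24 (G2/M). No member was called higher in any fit, and no called gene changed sign. Dim genes limit precision: 18 members lay below the median signal.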
